A study of Mus musculus with 75 samples.

Results

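Genes of B cells and plasma cells were followed through the time course of bleomycin (BLEO) lung injury in mice. The set comprised 9 genes, taken by symbol from the 55536 genes of the count table. They were Ms4a1, Cd79a, Cd79b and Pax5 as B cell genes, and Jchain, Mzb1, Sdc1, Prdm1 and Derl3 as plasma cell genes. Sequencing used RNA from the right lung's inferior lobe in 75 male C57BL/6JRj mice aged 12 to 14 weeks at the start, with 1 library per mouse. The groups were 10 controls (CTRL), 10 BLEO-IPF mice on day 7, 12 on each of days 14, 21, 28 and 35, and 7 on day 42 after a single intratracheal administration of BLEO. The titles of the control samples name saline, and the study describes its controls as saline-treated in some places and as untreated in others. BLEO-IPF mice entered the study only if they had lost 5% to 17% of their body weight. No genetic change was carried by any group. The lungs had been rinsed for bronchoalveolar lavage fluid before the lobe was taken, so the RNA was that of lavaged whole tissue.

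B cells recognize antigen through a membrane immunoglobulin that signals through the paired CD79A and CD79B chains. After activation a B cell can become a plasma cell, which shuts down the B cell program and secretes antibody in large amounts. In the lung, B cells lie scattered in the tissue or gather in lymphoid aggregates, and plasma cells supply mucosal IgA, which leaves the epithelium as dimers held together by the joining chain. In whole tissue, a change in a cell type's genes can come from fewer or more of its cells or from less or more RNA per cell. Levels here are shares of a library, so a change can also come from more or less RNA of other cells. These sources cannot be told apart here.

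Of the 9 genes, 8 passed the filter on low counts and were tested among 16221 genes. Mzb1 did not pass, with 357 counts over all 75 libraries. Levels are given as CPM, the reads of a gene relative to the library's scaled total, after TMM scaling, and differences as log2 fold change (log2FC) ± SE from edgeR's quasi-likelihood test, with p-values adjusted by the Benjamini-Hochberg method over all genes tested and called below 0.05. Total counts per library lay between 9240291 and 14665247. Where no separate origin of the mice beyond their group is given, p-values measure the spread between these mice.

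The positions of the genes were read from the GRCm38 annotation of Ensembl release 96. Ms4a1 lies on chromosome 19 from 11249675 to 11266241, Pax5 on chromosome 4 from 44524757 to 44710487 and Jchain on chromosome 5 from 88519809 to 88527891, all on the minus strand. Cd79a lies on chromosome 7 from 24897381 to 24902197 on the plus strand, and Cd79b on chromosome 11 from 106311341 to 106314762 on the minus strand. Sdc1 lies on chromosome 12 from 8771323 to 8793715 and Derl3 on chromosome 10 from 75893413 to 75895941, both on the plus strand. Prdm1 lies on the minus strand of chromosome 10 from 44437177 to 44528501. Counts are given per gene, so no value here belongs to a single transcript.

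The sequences just upstream of the start sites of 4 members are shown because Cd79a and Pax5, as well as Jchain and Derl3, varied together between mice. They come from RefSeq promoter windows on GRCm38.p6, which were used for 6 of the 9 members, and are written 5′ to 3′ on the strand of the gene. Each was ended before the start annotated by RefSeq or Ensembl, whichever came first.
Cd79a, chr7:24897247-24897380, plus strand: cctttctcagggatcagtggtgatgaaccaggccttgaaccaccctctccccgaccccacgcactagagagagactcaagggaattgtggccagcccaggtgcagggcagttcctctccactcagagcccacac
Pax5, chr4:44710695-44710944, minus strand: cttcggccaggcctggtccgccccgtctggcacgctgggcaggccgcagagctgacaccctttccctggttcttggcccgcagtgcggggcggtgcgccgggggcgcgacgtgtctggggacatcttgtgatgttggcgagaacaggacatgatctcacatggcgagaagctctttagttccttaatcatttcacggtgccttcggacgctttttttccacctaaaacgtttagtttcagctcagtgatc
Jchain, chr5:88527898-88528147, minus strand: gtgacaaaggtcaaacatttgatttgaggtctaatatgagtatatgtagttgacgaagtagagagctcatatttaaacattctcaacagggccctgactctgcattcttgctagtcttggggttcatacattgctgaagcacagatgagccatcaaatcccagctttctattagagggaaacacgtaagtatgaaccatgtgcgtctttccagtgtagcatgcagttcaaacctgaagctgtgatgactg
Derl3, chr10:75893148-75893397, plus strand: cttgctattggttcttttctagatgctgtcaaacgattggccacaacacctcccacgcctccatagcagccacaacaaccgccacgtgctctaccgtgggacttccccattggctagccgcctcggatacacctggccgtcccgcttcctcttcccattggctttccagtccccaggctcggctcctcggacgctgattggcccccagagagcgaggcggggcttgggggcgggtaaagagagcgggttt
The full windows of 300 bases of all 6 members were searched on both strands for 4 motifs, so no part of the printed runs is in capitals. The octamer bound by OCT factors (ATTTGCAT) was in 0 of the 6 windows and in 1.74% of all 32851 windows, and the core of the XBP1 motif (TGACGTGG) in 0 and 0.676%. The PU.1 core (GAGGAAGT) was in 0 of the 6 and in 3.2% of all windows, and the PRDM1 core (AGTGAAAG) in 0 and 1.32%. An absent motif says only that these letters do not occur in the window.

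The 4 B cell genes fell together, were lowest on day 14, and were not called different from CTRL on days 28, 35 and 42 with all mice in the fit and no replicate block. On day 14 their log2FC lay between -1.44 and -1.32, with a median of -1.37 against 0.01 over all genes tested. All 4 were called lower on days 7, 14 and 21 with all mice in the fit (4 of 4 on each day). Of all genes tested, 21%, 29.9% and 25.8% were called lower on these days. The 4 genes varied together between mice and are not independent of each other. Without the mice above 3 CPM of Rag1, described below, all 4 kept their call on day 14. None of the 4 was then called on day 7, and only Pax5 on day 21.

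**Figure D1:**
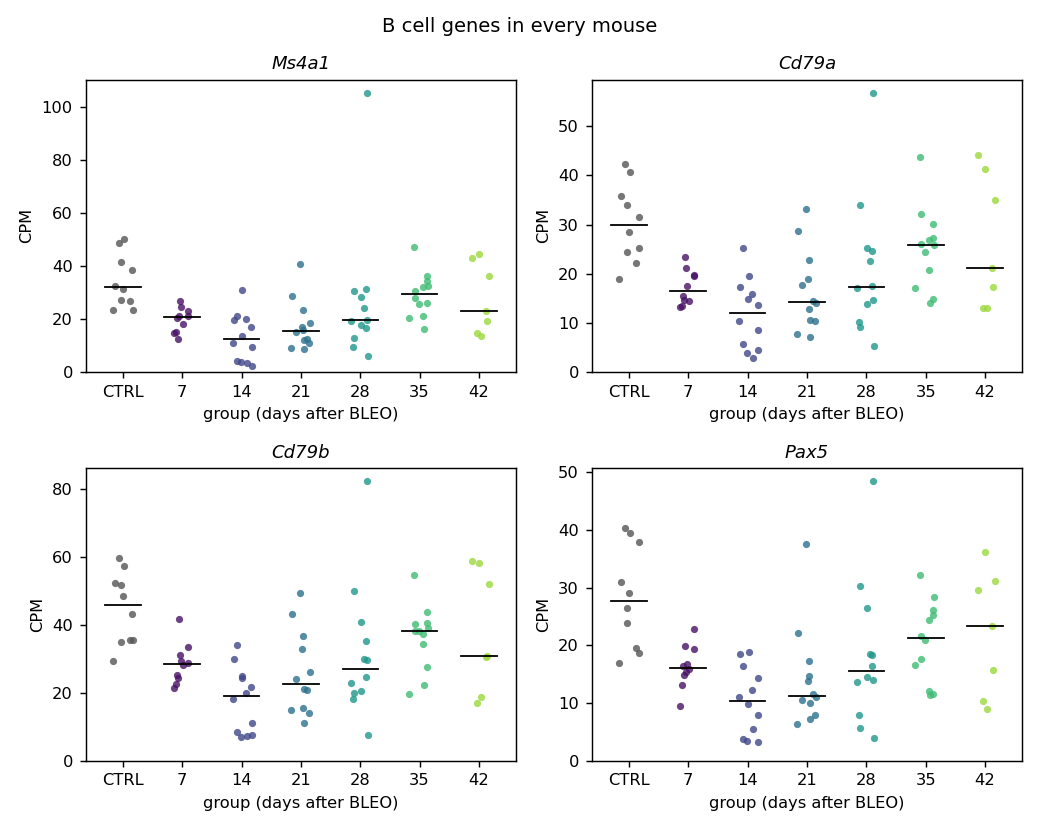
CPM of the 4 B cell genes in each mouse, by group, with the CTRL group first and the days after BLEO following; each point is 1 mouse and each bar the group median. All 4 genes have their lowest median on day 14, and 1 day 28 mouse lies far above the others of its group, at 105 CPM of Ms4a1.

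Ms4a1 encodes CD20, a surface protein of B cells that is lost in plasma cells. In CTRL mice it lay between 23.4 and 49.999 CPM with a median of 32.002. The lowest, median and highest values were 12.5, 20.6 and 26.8 CPM on day 7, 2.27, 12.3 and 30.97 CPM on day 14, and 8.58, 15.3 and 40.8 CPM on day 21. On day 28 they were 5.92, 19.5 and 105 CPM, on day 35 16.2, 29.4 and 47.2 CPM, and on day 42 13.6, 22.9 and 44.3 CPM. The groups overlapped on every day, but 11 of 12 mice on day 14 and 10 of 12 on day 21 lay below every CTRL mouse. Against CTRL, Ms4a1 fell with a log2FC of -0.79 ± 0.33 on day 7 (adjusted p = 0.0389), -1.40 ± 0.31 on day 14 (adjusted p = 9.92e-05) and -0.95 ± 0.31 on day 21 (adjusted p = 0.00745). The value was -0.36 ± 0.31 on day 28 (adjusted p = 0.356), -0.23 ± 0.31 on day 35 (adjusted p = 0.611) and -0.30 ± 0.36 on day 42 (adjusted p = 0.570), none of which passed the test.

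Cd79a and Cd79b encode the signaling chains of the B cell receptor. In CTRL mice Cd79a lay between 18.8 and 42.4 CPM (median 29.97), and on day 14 between 2.88 and 25.3 CPM (median 12.0). Cd79b lay between 29.3 and 59.9 CPM in CTRL mice (median 45.8) and between 6.99 and 34.1 CPM on day 14 (median 19.2). For both genes 10 of the 12 mice of day 14 were below every CTRL mouse. Cd79a fell with a log2FC of -0.81 ± 0.29 on day 7 (adjusted p = 0.0181), -1.35 ± 0.28 on day 14 (adjusted p = 3.01e-05) and -0.87 ± 0.28 on day 21 (adjusted p = 0.0062). Cd79b fell by 0.64 ± 0.27 on the log2 scale on day 7 (adjusted p = 0.0430), 1.32 ± 0.26 on day 14 (adjusted p = 1.22e-05) and 0.79 ± 0.26 on day 21 (adjusted p = 0.00723). By day 42 the median was 21.2 CPM for Cd79a and 30.8 CPM for Cd79b, where the test gave -0.19 ± 0.32 for Cd79a (adjusted p = 0.696) and -0.23 ± 0.30 for Cd79b (adjusted p = 0.604), so neither passed it.

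Pax5, the transcription factor that holds B cells to their identity, lay between 17.0 and 40.4 CPM in CTRL mice (median 27.8). On day 14 it lay between 3.25 and 18.9 CPM (median 10.4), and 10 of 12 mice were below every CTRL mouse. It fell with a log2FC of -0.79 ± 0.30 on day 7 (adjusted p = 0.0272), -1.44 ± 0.29 on day 14 (adjusted p = 2.01e-05) and -0.997 ± 0.29 on day 21 (adjusted p = 0.00265). The values of -0.64 ± 0.29 on day 28 (adjusted p = 0.0636), -0.45 ± 0.29 on day 35 (adjusted p = 0.234) and -0.35 ± 0.33 on day 42 (adjusted p = 0.467) did not pass.

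The B cell genes also differed in how unequal the mice of a group were. The coefficient of variation of Ms4a1 was 28.7% in CTRL and 23.3% on day 7, but 68.9% on day 14, 52.7% on day 21 and 96.8% on day 28. It came to 28.3% by day 35 and to 47.7% by day 42. The day 28 value rested on mouse 10, which held 105 CPM of Ms4a1, 56.8 CPM of Cd79a, 82.4 CPM of Cd79b and 48.4 CPM of Pax5, the highest of the 75 mice for each. The same mouse had 1.504 CPM of Glycam1, a gene of lymph node venules, and 71.7 CPM of Cxcl13, the chemokine that draws B cells into follicles. Whether these 2 genes are linked to its B cell values was not tested. Without mouse 10 the log2FC on day 28 was -0.80 for Ms4a1 (adjusted p = 0.0163), -0.77 for Cd79a (adjusted p = 0.0153), -0.71 for Cd79b (adjusted p = 0.0160) and -0.87 for Pax5 (adjusted p = 0.0092). All 4 were then called lower on that day. For Pax5 the call on day 28 was also gained by leaving out any of CTRL mice 2 and 10 and day 28 mice 3 and 11.

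The calls of day 7 depended more on the mice and settings used than those of day 14. Among the alternative settings the adjusted p on day 7 also went lower than in the main fit. It went down to 9.53e-05 for Ms4a1, 2.58e-05 for Cd79a, 1.72e-04 for Cd79b and 2.03e-04 for Pax5. Leaving out 1 mouse ended the call of Ms4a1 in 8 of 20 refits, that of Cd79b in 12 of 20 and that of Pax5 in 2 of 20 (CTRL mice 5 and 9), with adjusted p up to 0.0730, 0.0735 and 0.0524. For Ms4a1 the 8 mice were CTRL mice 4, 5, 6 and 9 and day 7 mice 2, 5, 7 and 9. For Cd79b the 12 were CTRL mice 1, 3, 5, 6 and 9 and day 7 mice 1, 2, 5, 6, 7, 9 and 10. With no filter on low counts the adjusted p on day 7 was 0.0693 for Ms4a1 and 0.0794 for Cd79b, and for Cd79b it was 0.0542 with scaling by library size and 0.0510 by DESeq2. A set of 6 mice had more than 3 CPM of Rag1, the recombinase of developing lymphocytes, namely CTRL mice 5, 8 and 9, day 21 mice 3 and 4 and day 28 mouse 7, with 3.63 to 18.6 CPM. Without these 6 mice the log2FC of the 4 genes lay between -0.69 and -0.56 on day 7 (adjusted p from 0.0851 to 0.153) and none was called. On day 21 Pax5 kept its call (-0.82, adjusted p = 0.0422), while Ms4a1 (-0.79, adjusted p = 0.0692), Cd79a (-0.70, adjusted p = 0.0748) and Cd79b (-0.65, adjusted p = 0.0716) did not. On day 14 all 4 were called without them, from -1.29 for Pax5 (adjusted p = 6.29e-04) to -1.23 for Cd79a (adjusted p = 7.08e-04).

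Ptprc, which encodes CD45 of all leukocytes, stayed within a log2FC of -0.17 to 0.19 of CTRL on the 6 days and was called on none of them by edgeR, with unadjusted p of 0.0844 at the lowest. As a share of Ptprc CPM in the same mouse, Ms4a1 was 15.1% to 22.5% in CTRL (median 18.6%) and 1.86% to 11.8% on day 14 (median 7.49%). All 12 mice of day 14 and 11 of 12 on day 21 lay below every CTRL mouse by this ratio. On day 35 it was 7.42% to 27.5% (median 15.1%), with 6 of 12 mice below every CTRL mouse.

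The plasma cell genes did not move as a group. Jchain rose from day 14, Sdc1 was higher on all 6 days, Prdm1 was lower on the first 5 and Derl3 was higher on day 35 alone.

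**Figure D2:**
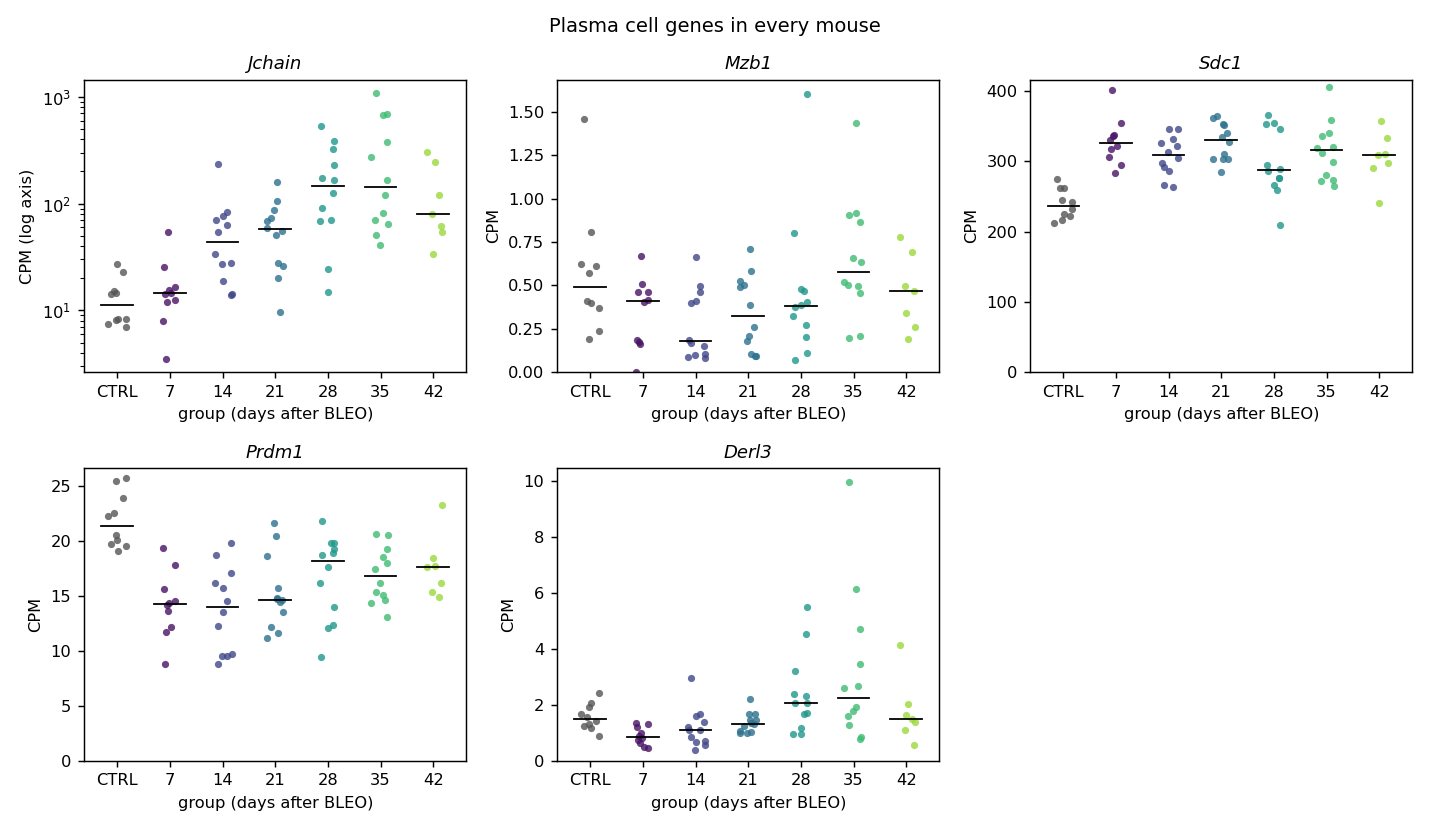
CPM of the 5 plasma cell genes in each mouse, by group; each point is 1 mouse, each bar the group median, and the axis of Jchain is logarithmic. Jchain reached 1087 CPM in 1 mouse of day 35, Sdc1 stayed between 210 and 407 CPM throughout, and Mzb1 stayed below 1.61 CPM.

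Jchain encodes the joining chain of dimeric IgA and pentameric IgM. CTRL mice lay between 7.05 and 27.2 CPM (median 11.3), and day 7 mice between 3.52 and 54.2 CPM (median 14.5). The lowest, median and highest values were 14.1, 43.9 and 234 CPM on day 14, 9.60, 57.3 and 159 CPM on day 21, and 14.9, 148 and 538 CPM on day 28. On day 35 they were 40.95, 143 and 1087 CPM and on day 42 33.5, 79.2 and 306 CPM. All 12 mice of day 35 and all 7 of day 42 were above every CTRL mouse, as were 9 of 12 on days 14 and 21 and 10 of 12 on day 28. The log2FC against CTRL was 0.41 ± 0.58 on day 7, which did not pass the test (adjusted p = 0.583). Jchain rose by 2.17 ± 0.56 on day 14 (adjusted p = 5.74e-04), 2.22 ± 0.56 on day 21 (adjusted p = 5.78e-04) and 3.79 ± 0.59 on day 28 (adjusted p = 3.57e-07). The rise was 4.53 ± 0.60 on day 35 (adjusted p = 1.73e-08), a fitted fold of 23.1, and 3.27 ± 0.61 on day 42 (adjusted p = 4.29e-05), a fitted fold of 9.62. Within day 35 the mice differed by up to 26.5 times, and the coefficient of variation was 109%.

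Per kilobase of annotated exon, the median of Jchain in CTRL mice was 4.50 CPM, near the 5.17 CPM of Ms4a1 and below the 20.6 CPM of Cd79a and the 31.996 CPM of Cd79b. On day 35 the median of Jchain was 56.9 CPM per kilobase, against 4.75 for Ms4a1, 17.8 for Cd79a and 26.7 for Cd79b. Sdc1 had the highest CTRL median of the 9 genes at 62.3 CPM per kilobase. Prdm1 had 3.84, Pax5 3.14, Derl3 0.751 and Mzb1 0.402 CPM per kilobase in CTRL mice.

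Sdc1 encodes syndecan-1 (CD138), a proteoglycan that marks plasma cells but is also made by epithelial cells. It lay between 212 and 275 CPM in CTRL mice (median 237), between 284 and 401 CPM on day 7 (median 326) and between 284 and 364 CPM on day 21 (median 331). All mice of days 7 and 21 were above every CTRL mouse, whereas the other days overlapped CTRL. The rise was small and of similar size throughout, with log2FC from 0.32 ± 0.07 on day 28 (adjusted p = 2.27e-04) to 0.46 ± 0.07 on day 7 (adjusted p = 7.00e-07). On day 42 the log2FC was 0.35 ± 0.08 (adjusted p = 7.90e-04). The coefficient of variation was 8.25% to 15.9% in every group, so the mice were far closer to each other for Sdc1 than for Jchain.

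Prdm1 encodes BLIMP-1, the repressor that drives plasma cell differentiation and is also used by T cells and other cells. It lay between 19.1 and 25.8 CPM in CTRL mice (median 21.4) and between 8.82 and 19.9 CPM on day 14 (median 14.0). On day 14 11 of 12 mice were below every CTRL mouse, and on day 7 9 of 10. Prdm1 fell with a log2FC of -0.62 ± 0.13 on day 7 (adjusted p = 8.08e-05), -0.66 ± 0.13 on day 14 (adjusted p = 5.63e-06) and -0.51 ± 0.13 on day 21 (adjusted p = 3.88e-04). It was still lower by -0.39 ± 0.13 on day 28 (adjusted p = 0.00874) and -0.37 ± 0.12 on day 35 (adjusted p = 0.0183). On day 42 the value was -0.31 ± 0.14 (adjusted p = 0.108), which passed when day 42 mouse 2 was left out (-0.40, adjusted p = 0.0498) and when CTRL and day 42 mice were fitted alone (-0.30, adjusted p = 0.0110).

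Derl3 encodes derlin-3, which helps to remove misfolded proteins from the endoplasmic reticulum. Its values rested on 4 to 99 counts per library. CTRL mice lay between 0.875 and 2.41 CPM (median 1.496), day 7 mice between 0.461 and 1.34 CPM (median 0.848) and day 35 mice between 0.772 and 9.97 CPM (median 2.26). On day 35 6 of 12 mice were above every CTRL mouse and 2 were below. Derl3 rose on day 35 with a log2FC of 0.99 ± 0.31 (adjusted p = 0.0116), and without day 35 mouse 5, which held 9.97 CPM, the value was 0.67 (adjusted p = 0.0798). On the other days the values did not pass, from -0.81 ± 0.35 on day 7 (adjusted p = 0.0506) to 0.60 ± 0.31 on day 28 (adjusted p = 0.117). On day 7 it was called lower when any of CTRL mice 2, 3, 6 and 9 or day 7 mice 4, 7 and 9 was left out, with adjusted p down to 0.0350, as well as with DESeq2 size factors in edgeR (adjusted p = 0.0472), by DESeq2 (adjusted p = 0.0497) and with CTRL and day 7 mice fitted alone (adjusted p = 0.00221).

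Mzb1 encodes a chaperone of immunoglobulin assembly. Its counts lay between 0 and 16 per library, and 1 day 7 mouse had 0 counts, which allows at most 3 counts of that library's total. The median was 0.489 CPM in CTRL, 0.176 CPM on day 14 and 0.578 CPM on day 35. The annotation holds a second gene on the same strand, a read-through locus named SPATA24, whose exons cover 695 of the 1215 exon bases of Mzb1 and which had 0 counts in all libraries. How reads shared by both genes were counted is not given in the sources used here, so the level of Mzb1 is uncertain. No other member shared more than 7.18% of its exon bases with another annotated gene.

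**Figure D3:**
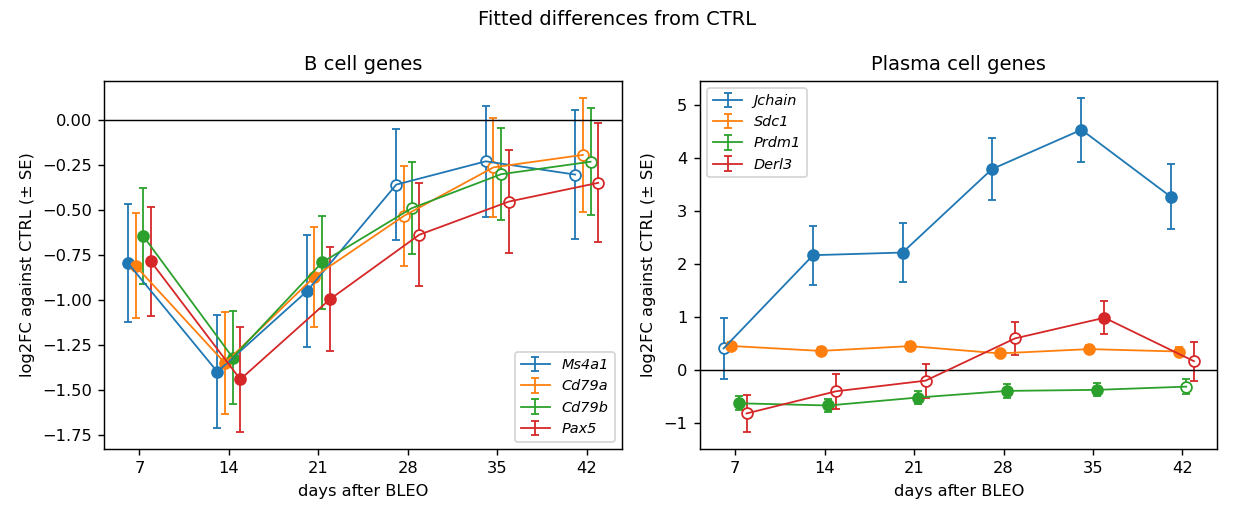
Fitted log2FC against CTRL with SE on each day after BLEO for the 4 B cell genes and the 4 plasma cell genes tested; filled points passed an adjusted p of 0.05 and open points did not. The B cell genes are lowest on day 14, between -1.44 and -1.32, and Jchain is highest on day 35, at 4.53.

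Set against all genes, the counts of members were as follows. On day 7 1 of the 8 tested members was called higher and 5 lower, where 24.8% of all genes tested were higher and 21% lower. On day 14 2 were higher and 5 lower, with 32.4% and 29.9% of all genes. On day 21 the members again gave 2 higher and 5 lower, with 28.3% and 25.8% of all genes. The 2 members called higher on day 28 and the 1 called lower stood beside 24.1% and 19.2%. On day 35 3 were higher and 1 lower, with 16.9% and 13.1%, and on day 42 2 were higher and 0 lower, with 13.7% and 11%. On day 42 0 members were lower also by DESeq2, and 1 member, Prdm1, had a log2FC under 0 with an unadjusted p of 0.0361 by edgeR. With so many genes changed, a count of 2 among 8 is near what all genes gave. The count of 5 lower members on days 7, 14 and 21 exceeded those shares with all mice in the fit. On each of these days 4 of the 5 were the B cell genes, which varied together between mice and are not independent of each other. Without the mice above 3 CPM of Rag1, 1 member was lower on day 7 and 2 on day 21. Without CTRL mouse 5 alone, 2 were lower on day 7.

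Neighboring days were compared in the same fit. From day 7 to day 14 Jchain rose by 1.76 ± 0.54 (adjusted p = 0.0174), the only 1 of 8 members called, where 17% of all genes were called. Without day 14 mouse 2, which held 234 CPM, that log2FC was 1.31 (adjusted p = 0.0776). Cd79b had a log2FC of -0.67 ± 0.26 between these days (adjusted p = 0.0628) and was called when day 14 mouse 2, 9 or 11 was left out, with adjusted p down to 0.0291. From day 14 to 21, 21 to 28, 28 to 35 and 35 to 42, edgeR and DESeq2 called 0 members, with 1, 3, 0 and 2 members at an unadjusted p under 0.05 by edgeR. All genes called in these steps were 1.03%, 0.727%, 1.27% and 0%. From day 21 to 28 Jchain had a log2FC of 1.57 ± 0.49 (adjusted p = 0.101), which passed when day 28 mouse 2 was left out (adjusted p = 0.0410).

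Ordered by median CPM, Ms4a1 ran from CTRL through days 35, 42, 7, 28 and 21 to day 14, and no 2 neighboring days of the course differed by the test. Jchain ran from days 28 and 35 through 42, 21 and 14 to day 7 and CTRL, and of the neighboring days only 7 and 14 differed. Day 42 was also compared with day 14, a comparison added after the values were seen. It called 5 of 8 members, all higher on day 42. Of the 16221 genes tested, 2467 were higher and 3054 lower, 34% in either direction. Ms4a1 was higher by 1.09 ± 0.34 (adjusted p = 0.0098), Cd79a by 1.16 ± 0.31 (adjusted p = 0.0023), Cd79b by 1.09 ± 0.28 (adjusted p = 0.00198) and Pax5 by 1.09 ± 0.32 (adjusted p = 0.00575). Prdm1 was higher by 0.36 ± 0.14 (adjusted p = 0.0405), a call lost when any of day 14 mice 1, 2, 3, 4 and 8 or day 42 mice 2, 3 and 4 was left out, with adjusted p up to 0.134. That call of Prdm1 was also lost with no filter on low counts (adjusted p = 0.0749) and with days 14 and 42 fitted alone (adjusted p = 0.0859). Jchain had a log2FC of 1.10 ± 0.54 (adjusted p = 0.108), or 1.55 without day 14 mouse 2 (adjusted p = 0.0204).

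Jchain and Ms4a1 moved apart in the same mice. The ratio of Jchain to Ms4a1 CPM was 0.166 to 0.868 in CTRL (median 0.333) and 0.836 to 24.1 on day 14 (median 3.38). It was 0.832 to 56.7 on day 28 (median 3.84), 1.496 to 38.8 on day 35 (median 6.92) and 0.754 to 17.9 on day 42 (median 5.22). On day 35 all 12 mice, and on days 14 and 21 11 of 12, were above every CTRL mouse. By day 35 Ms4a1 was back within the range of CTRL in 9 of 12 mice, so the ratio was then carried by Jchain.

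**Figure D4:**
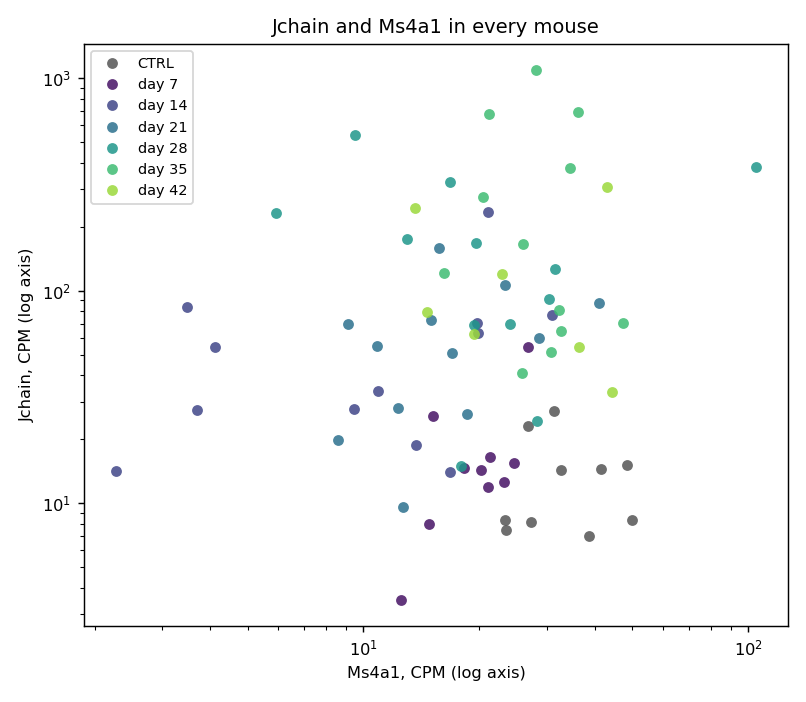
Jchain against Ms4a1 in each mouse, both in CPM on logarithmic axes, with the groups in different colors. CTRL mice lie between 7.05 and 27.2 CPM of Jchain, and the day 35 mice lie above them at 40.95 to 1087 CPM.

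Within groups, the 9 genes fell into sets that varied together. Each gene's log2 CPM was centred on its group mean, and the 36 pairs were correlated over 75 mice, with p-values from 100000 permutations within groups, two-sided and adjusted over the 36 pairs. For Pearson's r 16 pairs had an adjusted p under 0.05, and for Spearman's rho 14. All 6 pairs of B cell genes were among them, from r = 0.90 (rho = 0.89) for Cd79b with Pax5 to r = 0.96 (rho = 0.95) for Cd79a with Cd79b. Their permutation p of 1e-05 was the smallest that the permutations can give (adjusted p = 4.5e-05), and r within single groups ran from 0.59 to 1.00. Without the 2 mice farthest from the median of the first gene, these r lay between 0.88 and 0.96.

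Jchain correlated with Derl3 (r = 0.64, rho = 0.59, permutation p = 1e-05 for each, adjusted p = 4.5e-05), and r was 0.60 without the 2 mice farthest from the median of Jchain. Within single groups that r ran from 0.05 to 0.84. Jchain also correlated with Mzb1 (r = 0.41, permutation p = 4.9e-04, adjusted p = 0.00147; rho = 0.42, permutation p = 4.1e-04, adjusted p = 0.00123), with r from 0.27 to 0.59 within groups and 0.42 without 2 mice. With Ms4a1 the r of Jchain was 0.12 (rho = 0.07, adjusted permutation p = 0.468 and 0.668), and with Sdc1 it was -0.04 (rho = -0.02, adjusted permutation p = 0.803 and 0.930). Prdm1 correlated with each B cell gene, from r = 0.53 with Cd79a to r = 0.57 with Ms4a1 (rho = 0.51 and 0.57, adjusted permutation p = 1.31e-04 and 4.5e-05 for r, 7.2e-05 and 4.5e-05 for rho). These r lay between 0.50 and 0.55 without the 2 mice farthest from the median of the B cell gene, and within single groups between -0.18 and 0.81. For Prdm1 the r with Jchain was -0.12 (rho = -0.13, adjusted permutation p = 0.439 and 0.423). Sdc1 was inversely related to Ms4a1 (r = -0.38, rho = -0.32, adjusted permutation p = 0.00409 and 0.0165), with r of -0.80 to 0.20 within groups and -0.26 without 2 mice.

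**Figure D5:**
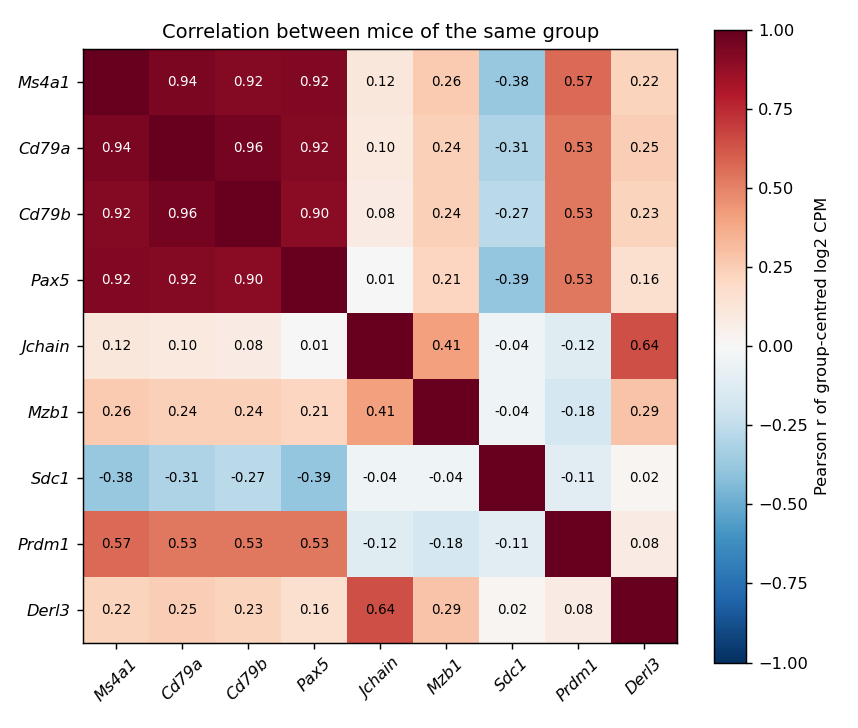
Pearson r between each pair of the 9 genes over 75 mice, from log2 CPM centred on group means; red is positive and blue negative. The 4 B cell genes form a block with r of 0.90 to 0.96, and Jchain pairs with Derl3 at 0.64.

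Across the same mice, the genes most like each member were described by r without a test. For Ms4a1 the closest included Bank1 (r = 0.94), H2-Ob (0.93), Cxcr5 (0.92) and Fcmr (0.92), all known in B cells. Those of Jchain were immunoglobulin genes, namely Igkc (0.96), Iglv1 (0.85), Igha (0.84), Iglc1 (0.81) and Ighv1-26 (0.80). Derl3 was closest to Igkc (0.71), Ighv1-53 (0.68), Igkv12-44 (0.67), Ighv1-26 (0.65) and Igkv14-111 (0.63). Sdc1 was closest to Mapk13 (0.85), St14 (0.84), Nectin2 (0.78), Npc2 (0.76) and Lamb3 (0.76), of which St14, Nectin2 and Lamb3 are known in epithelium. Prdm1 was closest to Prickle1 (0.76), Ptch1 (0.75), Dpp4 (0.74), Negr1 (0.74) and Synm (0.74).

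Other genes of the B cell and plasma cell programs were taken from lists. Of 18 other B cell genes, all tested, 7 were lower and 1 higher on day 7, 12 lower and 3 higher on day 14, and 10 lower and 2 higher on day 21. On day 28 the counts were 1 lower and 2 higher, and on day 42 1 and 1. The median log2FC of the list was -0.97 on day 14 and -0.12 on day 42, where all genes tested had 0.01 on each. Vpreb3, a partner of the pre-B cell receptor, had its 10 CTRL mice at 15.1 to 26.4 CPM, all above every BLEO-IPF mouse, and fell by 2.16 on the log2 scale on day 14 (adjusted p = 1.75e-10) and by 1.38 on day 42 (adjusted p = 5.37e-04). Fcmr, the receptor for the Fc part of IgM, fell by 1.32 on day 14 (adjusted p = 1.62e-04), and Bank1, an adaptor of B cell receptor signaling, by 1.21 (adjusted p = 1.91e-04).

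Of 12 other plasma cell genes, 11 were tested, and 6 were higher and 1 lower on days 14 and 35, and 3 higher and 1 lower on day 42. Among all genes tested, 32.4% were higher and 29.9% lower on day 14. The shares were 16.9% and 13.1% on day 35 and 13.7% and 11% on day 42. On day 14 the list had a median of 0.24 and on day 35 of 0.23 (log2FC), against 0.01 and 0.00 over all genes. Slamf7, a surface receptor of plasma cells and other leukocytes, rose by 1.32 on day 35 (adjusted p = 3.18e-07), from a CTRL median of 11.7 CPM to 32.003 CPM. Eaf2, a transcription elongation factor, rose by 1.36 on day 35 (adjusted p = 0.00143). Tent5c, a poly(A) polymerase, was the gene called lower on day 14, by 0.64 (adjusted p = 2.40e-08). Beside the same shares of all genes, 10 genes of protein folding in the endoplasmic reticulum were read. Of these, 8 were higher and 1 lower on day 14 and 4 higher on day 42. Among them Sdf2l1 rose by 1.33 on day 14 (adjusted p = 1.58e-13), Calr by 0.56 (adjusted p = 1.15e-08) and Hspa5 by 0.50 (adjusted p = 2.05e-07).

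Of 12 immunoglobulin constant genes, 11 were tested, with 5 higher and 2 lower calls on day 14, 8 higher and 1 lower on day 28, 8 higher on day 35 and 7 higher on day 42. All genes tested gave 32.4% higher and 29.9% lower on day 14, and 24.1% and 19.2% on day 28. They gave 16.9% higher on day 35 and 13.7% on day 42. Constant genes of the IgG classes are near-identical in part, so reads may be split between them and each single value is uncertain. Ighg2c lay between 0 and 0.692 CPM in CTRL and between 0.504 and 1464 CPM on day 35 (median 6.10; adjusted p = 7.93e-07). Ighg3 lay between 0 and 1.58 CPM in CTRL and between 0.336 and 382 CPM on day 35 (median 17.6; adjusted p = 1.03e-06). Ighg2b lay between 0.716 and 6.14 CPM in CTRL and between 2.94 and 447 CPM on day 35 (median 19.2; adjusted p = 1.90e-06). These 3 genes rose on day 35, but within that day their mice spanned more than the whole difference between the medians of the groups.

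Ighm, Ighd, Igha and Igkc were named after their values were seen. Igha, the heavy chain of IgA, lay between 29.1 and 137 CPM in CTRL (median 52.3) and between 140 and 1011 CPM on day 42 (median 341). It rose by 2.28 ± 0.58 on day 14 (adjusted p = 4.68e-04), 3.87 ± 0.62 on day 35 (adjusted p = 1.22e-06) and 2.95 ± 0.63 on day 42 (adjusted p = 3.17e-04). Ighm, the heavy chain of IgM, lay between 116 and 239 CPM in CTRL, and rose by 1.73 ± 0.54 on day 28 (adjusted p = 0.00654) and 2.23 ± 0.55 on day 35 (adjusted p = 0.00103), with values up to 3224 CPM. Ighd, the heavy chain of IgD on naive B cells, fell by 1.24 ± 0.28 on day 14 (adjusted p = 1.02e-04). The CPM of Ighd was 30.6% to 42.2% of that of Ighm in CTRL mice and 1.24% to 26.7% on day 35, when all 12 mice were below every CTRL mouse. The median was 34.6% in CTRL and 36.3% on day 7, when 3 mice were above and 2 below every CTRL mouse. On days 14 and 28 10 of 12 mice were below, and on day 21 7 of 12. By day 42 the median was 30.5%, with 4 of 7 mice below. The light chain gene Igkc rose by 3.21 ± 0.50 on day 35 (adjusted p = 6.09e-07), and all 12 mice were above every CTRL mouse.

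Among 20 ligands and receptors of B cell survival and homing, 17 were tested, with 5 higher and 5 lower on day 14 and 3 higher and 1 lower on day 42. The counts of day 14 are near the 32.4% higher and 29.9% lower of all genes tested. Cxcl13 rose by 2.22 on day 7 (adjusted p = 2.28e-05) and 2.95 on day 14 (adjusted p = 1.75e-08), when all 12 mice lay above every CTRL mouse. Its receptor Cxcr5 fell by 1.17 on day 14 (adjusted p = 6.89e-04). Ccl28, a chemokine that draws IgA plasma cells to mucosa, rose by 2.39 on day 42 (adjusted p = 0.00682). Of 8 germinal center B cell genes, 6 were tested, and 5 were higher on days 7 and 14 and 2 on day 42. The shares of all genes tested that were higher on these days were 24.8%, 32.4% and 13.7%. Mybl1 rose by 1.40 on day 7 (adjusted p = 1.14e-13), Gcsam by 1.38 on day 35 (adjusted p = 4.00e-07) and Ung, an enzyme of DNA repair in all dividing cells, by 1.07 on day 14 (adjusted p = 2.23e-06).

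Markers of other cell types were read in the same mice. Their counts stand beside 24.8% higher and 21% lower of all genes tested on day 7, and 32.4% and 29.9% on day 14. Of 12 T cell markers, all tested, 1 was higher and 1 lower on day 14, when Icos rose by 0.81 (adjusted p = 0.00424) and Cd8a fell by 0.69 (adjusted p = 0.00558). Their summed CPM was 57.9 to 124 in CTRL and 23.7 to 171 on day 14. Of 8 thymocyte markers, 5 were tested, 4 of them lower on days 7 and 14. Of these Cd8b1 fell by 0.89 (adjusted p = 0.00116) and Themis by 0.73 (adjusted p = 0.00698) on day 14. The summed thymocyte markers were 17.2 to 56.3 CPM in CTRL and 9.02 to 26.8 CPM on day 14, and in each group 2 of the 8 had a median of 0 counts, Ptcra in every group and Rag2 in every group but day 21. Their part in the fall of the B cell genes was not tested beyond the values without the 6 mice high in Rag1, given above. Without those mice 1 of the 5 tested thymocyte markers was called on day 14, and of the 18 other B cell genes 3 were lower and 1 higher on day 7, 11 lower and 3 higher on day 14, and 2 lower and 3 higher on day 21.

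Of 7 markers of lymph node stroma, 5 were in the table and 2 tested, and Cxcl13 was the gene called higher. The summed CPM of the 5 was 2.54 to 5.78 in CTRL, 6.27 to 107 on day 14 and 4.20 to 74.7 on day 28, where Glycam1 and Ccl21a had a median of 0 counts in every group and Madcam1 in CTRL and on days 21, 28 and 42. Of 8 plasmacytoid dendritic cell markers, 7 were tested, and 3 were lower and 1 higher on day 14. Among them Ccr9 fell by 0.81 (adjusted p = 0.00525) and Siglech by 0.71 (adjusted p = 0.0112) on day 14, and Cox6a2 rose by 0.97 on day 28 (adjusted p = 0.0193). All 9 epithelial markers were tested, and 6 were higher on days 7, 21, 28, 35 and 42 and 5 on day 14, with 1 lower on day 14, beside the rise of Sdc1. Cldn4 rose by 3.21 on day 14 (adjusted p = 4.85e-12), Krt18 by 1.03 on day 7 (adjusted p = 2.45e-11) and Krt8 by 1.01 on day 7 (adjusted p = 3.15e-10). The summed epithelial markers rose from 1117 to 1403 CPM in CTRL to 1615 to 2832 CPM on day 7. Of 8 macrophage markers, 7 were higher on day 14, with C1qa at 3.08 (adjusted p = 1.68e-16), Cd68 at 2.21 (adjusted p = 9.62e-16) and Marco at 2.31 on day 21 (adjusted p = 1.71e-05). Their summed CPM was 350 to 407 in CTRL and 800 to 1662 on day 14. The part of these shifts in the values of the 9 genes was not tested.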

How the data were processed

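Poly A-enriched RNA of lung was sequenced single-end in 75 mice from stranded libraries. Per the methods and labels, the authors aligned the reads with STAR 2.7.0f to GRCm38 with the Ensembl 96 annotation, and they deposited the values as raw counts per gene. How reads were assigned to genes, and whether strand was used, is not given in the sources used here. All 75 columns were matched to mice by the library number in the sample description, with group and replicate taken from the title, and every gene of the table was found in the annotation.

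Counts were fitted in R 4.3.3 with edgeR 4.0.16 (quasi-likelihood F test, TMM factors, filterByExpr, all 75 mice, 7 group means), and adjusted by Benjamini-Hochberg. Log2 CPM used a prior count of 2. Total counts of 9240291 to 14665247 per library limit the precision, and intervals or floors of 3 counts cover counting error only. DESeq2 1.42.0 and other scalings, filters, a block, a fold limit and 75 refits without 1 mouse were alternatives. The lowest chi-square per degree of freedom between mice of a group was 4.11, so no 2 libraries of a group agreed within sampling noise, and libraries of different groups were not compared in this way. Tables and figures used Python 3.11.15, numpy 2.4.6, scipy 1.17.1, pandas 2.3.3 and matplotlib 3.10.9.

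The 9 members and the 12 other lists were chosen with earlier results of these data known. All members were named. From each other list the 3 genes with the largest absolute log2FC on any day were named, among those with an adjusted p under 0.05 and a mean log2 CPM above 0, with Ptprc as a reference, and for 5 members up to 5 genes with the highest r. The comparison of day 42 with day 14 and the omission of mice above 3 CPM of Rag1 were added after the data were seen. Protein sequences were not used here.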

Additional observations from a re-analysis of the deposited data

Results flagged for a closer look

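Results that differed between time points, by a test of the difference itself in the same edgeR fit, are given here as values. From day 7 to day 14 the log2FC of Jchain was 1.76. From day 14 to day 42 the log2FC was 1.09 for Ms4a1, 1.16 for Cd79a, 1.09 for Cd79b, 1.09 for Pax5 and 0.36 for Prdm1. The last comparison was chosen after the values were seen. In the 27 sets of member values from groups of 7 to 10 mice, 0 were flagged as holding a mouse apart from the others. The limit of that rule is not given here, and groups of 12 were not examined in that way. Day 7 mouse 8 held 54.2 CPM of Jchain, with 25.6 CPM in day 7 mouse 9. Leaving out 1 mouse took the log2FC of Jchain on day 7 from 0.41 to as low as 0.03, neither of which was called.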

How the results depend on the processing

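Depth limits Derl3 and Mzb1 most, and the scalings moved the median log2FC by at most 0.03. By day against CTRL, 6, 7, 7, 3, 4 and 2 members were called on days 7 to 42. A limit of 0.5 on the absolute log2FC left 1 call on day 28, 2 on day 35 and 1 on day 42, by its construction. Without the 6 mice above 3 CPM of Rag1, 2 members were called on day 7 and 4 on day 21. Leaving out 1 mouse gave 3 to 7 calls on day 7, 3 to 7 on day 28, 1 to 2 between days 7 and 14 and 0 to 1 between days 21 and 28. The replicate numbers were shared by the groups but paired nothing: same-numbered mice had a median correlation of 0.006 (lowest -0.54), and 7 of 75 mice were most like a mouse of their own number. With the replicate block, 5 members were called on day 28, with Cd79a (-0.70, adjusted p = 0.0413) and Pax5 (-0.77, adjusted p = 0.0360) gained as lower, and 2 between days 7 and 14, with Cd79b gained as lower (-0.75, adjusted p = 0.0410), the other counts stayed within 1.5 times, and the log2FC of Ms4a1 from day 35 to 42 was 0.0223. These changes of sign concern values that passed no test. Sdc1 from day 14 to 42 was 0.0162 by library size, 0.0138 by upper quartile factors and 0.0013 with at least 10 counts in every mouse, and Jchain from day 14 to 21 was -0.10 without the mice high in Rag1. Leaving out 1 mouse gave -0.20 to 0.31 for Derl3 on day 42, -0.10 to 0.0149 for Prdm1 from day 7 to 14, -0.17 to 0.50 for Jchain from day 14 to 21, -0.0346 to 0.0626 for Prdm1 from day 28 to 35 and -0.0423 to 0.0447 for Sdc1 from day 14 to 42. From day 35 to 42 it gave -0.22 to 0.0496 for Ms4a1, -0.10 to 0.19 for Cd79a, -0.0682 to 0.20 for Cd79b, -0.055 to 0.25 for Pax5, -0.0828 to 0.00427 for Sdc1 and -0.0177 to 0.10 for Prdm1. The cause was not tested for any of these. With no filter Mzb1 was tested and had a log2FC of -1.001 on day 14 (adjusted p = 0.0493).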

Other observations

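The mice with the most Jchain differed in which immunoglobulin heavy chain they held. Day 35 mouse 5, with 1087 CPM of Jchain, had 3224 CPM of Ighm and 2955 CPM of Igha. Day 28 mouse 5, with 538 CPM of Jchain, had 2423 CPM of Igha and 595 CPM of Ighm, while day 28 mouse 10 had 2902 CPM of Ighm and 95.1 CPM of Igha at 383 CPM of Jchain. Day 35 mouse 7 had 1464 CPM of Ighg2c, 447 CPM of Ighg2b and 382 CPM of Ighg3, the highest of all 75 mice for each. These are values of single mice, picked after they were seen.

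Derl3 was measured at 6.22% to 34.2% of the CPM of Jchain in CTRL mice (median 10.4%) and at 0.467% to 4.36% on day 35 (median 1.13%), when all 12 mice were below every CTRL mouse. The other days were similar, with 7 of 10 mice below every CTRL mouse on day 7, 11 of 12 on each of days 14, 21 and 28, and all 7 on day 42 (median 1.36%).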
